A study of Rattus norvegicus with 24 samples.

Results

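Electroacupuncture (EA) was compared with sham electroacupuncture (SEA) in the central nucleus of the amygdala (CEA) of hepatectomized rats, by the miRNA content of the tissue. The comparison takes in every sample labelled as a CEA miRNA library of the HT+EA or of the HT+SEA group, 3 libraries of each, so 6 of the 24 miRNA libraries of the series. All rats were male Sprague-Dawley rats, bought at 7 weeks of age, and both groups underwent partial hepatectomy (HT) under isoflurane, with about 20% of the left liver lobe removed. HT+EA rats had needles at the leg points Zusanli and Sanyinjiao joined to a stimulator that alternated between 2 and 15 Hz for 30 min, in a session 24 h before the operation and another just after it. HT+SEA rats had needles at the same points and no connection, so the groups differed in the current and shared the needling, the surgery and the anaesthetic. All rats were restrained awake during the sessions, and brains were collected 24 h after the last one. A normal control group (NC), without surgery, and an HT group, without needles, were restrained likewise, and their 3 CEA libraries each are described below as reference levels without a test. The methods divide 12 rats over the 4 groups, and also say that brain samples came from different rats of 1 batch for want of material. They do not say which rat or rats a library was made from, or whether same-numbered libraries of different nuclei share a rat. The p-values below therefore refer to libraries and not to rats, and the spread behind them was taken largely from all miRNAs together, as given below.

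The CEA is the main output nucleus of the amygdala. It receives nociceptive and visceral signals from the brainstem and projects to the hypothalamus, where it can drive the stress axis, and peripheral stimulation of deep tissue is known to reach it through these pathways. miRNAs are short RNAs that pair with target mRNAs through their seed, bases 2 to 8 from the 5′ end, and lower translation and stability of the target. Many are made by 1 cell type, so in a piece of tissue a miRNA's level follows both its amount per cell and the number of cells, blood cells included, that the piece holds, and bulk libraries cannot tell fewer cells of a type from less RNA per cell.

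The library totals lay between 13402373 and 14913564 counts in the HT+EA group and between 12673690 and 14324159 in the HT+SEA group. Levels are given as CPM, the count of a miRNA scaled to 1000000 counts of its library. The detection floor was set at 3 counts, which is 0.201 CPM in the deepest of the 6 libraries and 0.237 CPM in the shallowest, and covers counting error only. The miRNAs listed to tell this nucleus from the paraventricular nucleus of the hypothalamus (PVN) were chosen with earlier results of the series known, so their levels are a description and no independent check of the labels. miR-221, miR-222 and miR-139 summed to between 8389 and 22401 CPM in the 12 CEA libraries, against group medians of 2708 to 3534 CPM in the PVN, and the miR-7 family summed to between 24865 and 54345 CPM in the CEA, against PVN medians from 140262 to 165070 CPM. Over 534 miRNAs the log2 levels of any 2 HT+EA libraries had a Pearson correlation from 0.992 to 0.995, any 2 HT+SEA libraries from 0.983 to 0.990, and an HT+EA with an HT+SEA library from 0.985 to 0.996. The HT+EA libraries were thus as like the HT+SEA libraries as these were like each other.

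The differences below were carried by miRNAs of several origins. The mature sequences of the 11 known miRNAs with at least 10 counts on average that differed at an unadjusted p under 0.05 are shown because each name hides how related the molecules are. Capitals mark the seed, and sequences are those of RefSeq for the rat assembly GRCr8.
rno-miR-144-3p: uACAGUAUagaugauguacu
rno-miR-451-5p: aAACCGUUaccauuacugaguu
rno-miR-142-3p: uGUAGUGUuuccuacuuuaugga
rno-miR-184: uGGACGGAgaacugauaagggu
rno-miR-493-5p: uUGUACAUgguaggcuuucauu
rno-miR-32-5p: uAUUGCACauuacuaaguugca
rno-miR-34b-5p: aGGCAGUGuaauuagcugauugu
rno-miR-219a-5p: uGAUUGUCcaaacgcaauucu
rno-miR-206-3p: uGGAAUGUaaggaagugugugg
rno-miR-1298: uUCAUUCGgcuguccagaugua
rno-miR-344b-1-3p: gAUAUAACcaaagcccgacugu
No 2 of these 11 share a seed. Of the 1026 miRNAs tested, 622 had a sequence in the table, with 525 different seeds, and 7 of the 11 shared theirs with none of the others.

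The other 4 of the 11 had relatives with the same seed, and a sample of those is shown to compare with miR-32-5p, miR-34b-5p, miR-206-3p and miR-344b-1-3p.
rno-miR-25-3p: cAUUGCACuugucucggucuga
rno-miR-92a-3p: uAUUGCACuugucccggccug
rno-miR-34c-5p: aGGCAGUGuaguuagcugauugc
rno-miR-1b: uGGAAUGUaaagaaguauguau
rno-miR-410-3p: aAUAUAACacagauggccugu
miR-34b-5p and miR-34c-5p also lie next to each other in the genome, at chr8:60306657-60306679 and chr8:60306133-60306155 on the minus strand, within the span of Hoatz, a gene of ciliated cells. The 1 pair of neighbours among the 11 was miR-144-3p at chr10:63459446-63459465 and miR-451-5p at chr10:63459585-63459606, both on the plus strand and 139 bases apart from start to start, outside any other gene of the annotation. miR-1298 lies at chrX:115556987-115557008 in the span of Htr2c, the serotonin 2C receptor gene, and miR-142-3p at chr10:73055155-73055177 in the span of Tspoap1. miR-32-5p lies at chr5:76391328-76391349 in the span of Tmem245. miR-493-5p lies at chr6:134314744-134314765, inside the stretch from 134298094 to 134579828 that holds all 86 placed members of the imprinted Dlk1-Dio3 list, from which the list's own wording had left it out. miR-344b-1-3p is at chr1:124035684-124035705 and miR-184 at chr8:99222991-99223012, both on the minus strand and outside other genes.

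After EA 23 of the 1026 miRNAs tested were called against SEA at an unadjusted p under 0.05 by edgeR's quasi-likelihood test, the threshold of the study, or 2.24%. Of these, 15 were lower after EA (1.46% of all tested) and 8 were higher (0.78%). No miRNA had a Benjamini-Hochberg adjusted p under 0.05 in this test, and the smallest adjusted p was 0.734, for miR-144-3p. DESeq2 called 8 at the unadjusted threshold and 0 after adjustment. With the replicate number as a block, and with some libraries left out, a few miRNAs did pass after adjustment, as set out under the dependence on processing. Of the 23, 14 were known miRNAs and 9 were predicted ones that carry only a number. A mean of at least 10 counts over the 6 libraries was reached by 540 miRNAs, of which 12 were called (2.22%), 11 lower (2.04%) and 1 higher (0.185%) after EA. The remaining 11 calls rested on fewer than 10 counts. Among the 540 the median log2 fold change was -0.02, and 95.2% lay within 0.5 of no change.

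**Figure D1:**
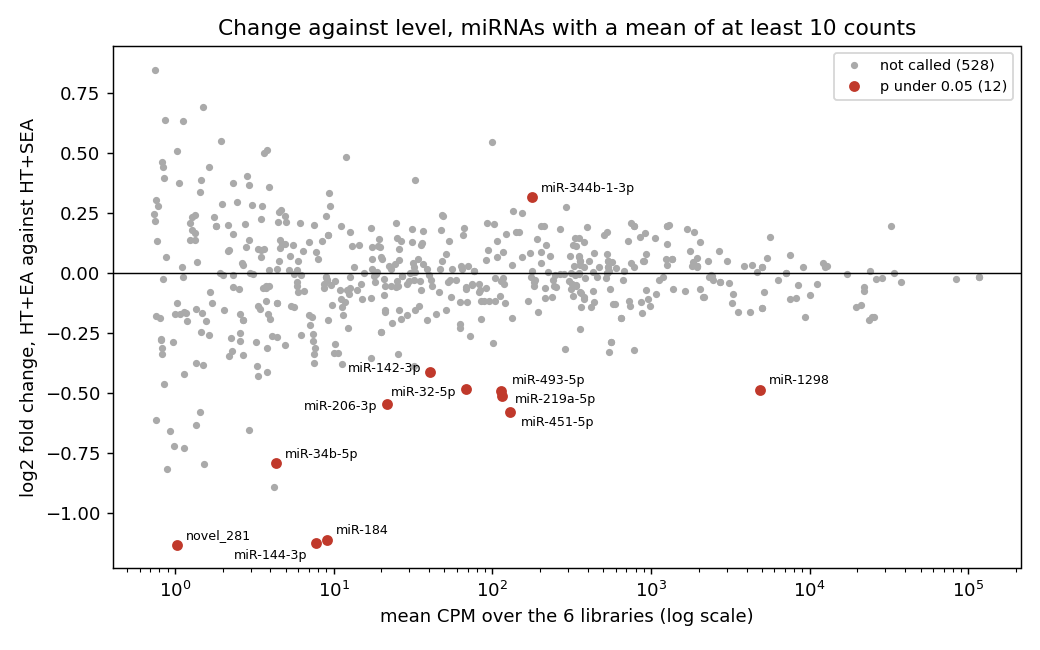
The log2 fold change of HT+EA against HT+SEA in the CEA (vertical axis) is plotted against the mean CPM over the 6 libraries (horizontal axis, log scale) for the 540 miRNAs with a mean of at least 10 counts; the 12 called at an unadjusted p under 0.05 are in red with their names. Of the red points 11 lie below 0, and the miRNAs above 100 CPM stay between -0.58 and 0.32.

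For abundant miRNAs the fit sets bounds on the difference between these 2 groups of libraries. All 216 miRNAs with a mean of at least 100 CPM had log2 fold changes between -0.58 and 0.32, and the 95% interval of each stayed within 1 either way, reaching a median of 0.31 to each side. Of these 216, 4 were called lower and 1 higher. The spread behind these intervals came mostly from the other miRNAs, with 48.8 degrees of freedom from that prior and 4 from the libraries themselves. With edgeR's own expression filter, where the prior fell to 4.85, the median reach was 0.33 and 213 of the 216 intervals stayed within 1. Changes smaller than this reach were not detectable with 3 libraries a group.

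The smallest p belonged to miR-144-3p and miR-451-5p, the red-cell miRNAs that are made from 1 short precursor cluster and are needed for red-cell maturation. miR-144-3p was at 6.53, 5.89 and 2.48 CPM in the HT+EA libraries and at 9.01, 6.04 and 16.7 CPM in the HT+SEA libraries. The 2 groups touched, because HT+SEA replicate 2 lay below HT+EA replicate 1. miR-144-3p fell by 1.12 on the log2 scale (SE 0.31, 95% interval -1.75 to -0.50, unadjusted p = 0.000716 in edgeR's test). It is a scarce miRNA here, with 37 to 95 counts in the HT+EA libraries and 79 to 212 in the HT+SEA libraries.

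miR-451-5p, the more abundant of the pair, was at 108, 123 and 83.8 CPM after EA and at 151, 105 and 204 CPM after SEA. Again HT+SEA replicate 2 sat among the HT+EA libraries. The means were 105 ± 19.97 and 153 ± 49.6 CPM (SD, n = 3), and miR-451-5p fell by 0.58 on the log2 scale (SE 0.18, 95% interval -0.94 to -0.21, unadjusted p = 0.00255 in edgeR's test). miR-144-3p and miR-451-5p were called with each of the 6 libraries left out in turn, with log2 fold changes from -1.38 to -0.64 and from -0.76 to -0.32. For both the smallest change was found without HT+SEA replicate 3.

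The other red-cell and liver miRNAs pointed the same way without passing the test. miR-144-5p, the opposite strand of the miR-144 hairpin, was at 10.1, 8.21 and 8.65 CPM after EA and at 10.5, 5.96 and 17.0 CPM after SEA. miR-486, a further red-cell miRNA, was at 57.7, 57.1 and 61.3 CPM against 59.3, 48.7 and 94.2 CPM. miR-122-5p, the main miRNA of hepatocytes, stayed between 0.47 and 1.68 CPM in all 6 libraries. All 5 measured members of the red-cell and liver list had negative log2 fold changes, with a median of -0.58 against -0.02 over the 540 measured miRNAs, of which 54.4% were negative. Of the 5, 2 were called, against 2.22% of the 540. The summed level of the list was 183, 196 and 157 CPM in the HT+EA libraries and 231, 167 and 332 CPM in the HT+SEA libraries. Without HT+SEA replicate 3, the library with the highest sum of all 12 in the CEA, 3 of the 5 were negative and the median was -0.32. The HT libraries ran from 95.6 to 209 CPM and the NC libraries from 161 to 250 CPM, and both overlapped the HT+EA and the HT+SEA group. Whether the amount of blood in the tissue differed was not tested.

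**Figure D2:**
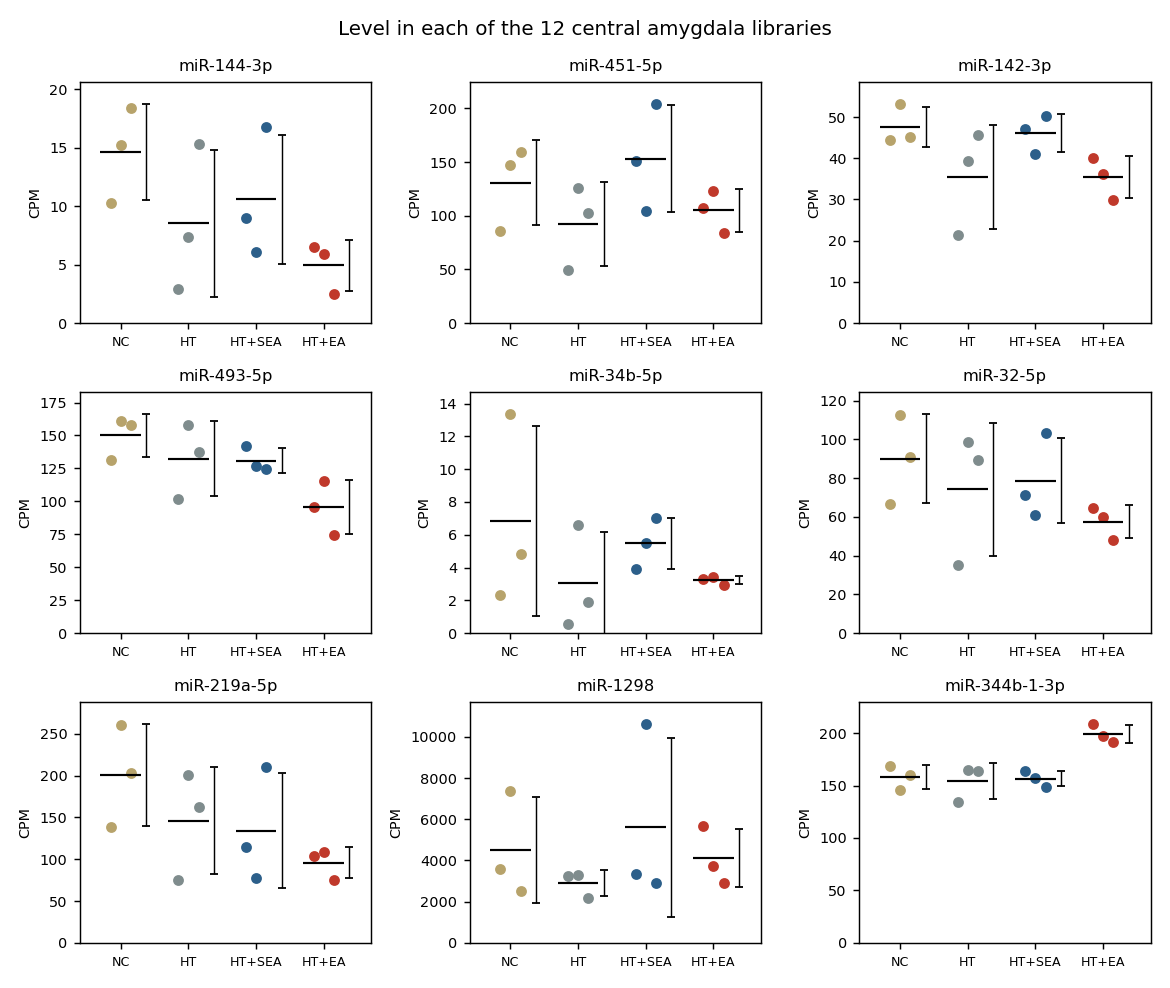
Each panel shows 1 miRNA, with its CPM (vertical axis, linear from 0) in the 3 CEA libraries of each group (horizontal axis); points are libraries, the horizontal line is the group mean and the bar beside it is the mean ± 1 SD, cut off at 0 for miR-34b-5p in the HT group. The 3 HT+EA points of miR-344b-1-3p lie above the other 9, and 1 HT+SEA point stands far above the others of its group for miR-219a-5p and for miR-1298.

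miR-142-3p, a miRNA of all blood-derived immune cells and of microglia, was lower after EA in libraries that did not overlap. Its levels were 40.1, 36.3 and 29.97 CPM after EA and 47.2, 41.1 and 50.2 CPM after SEA, and it fell by 0.41 on the log2 scale (SE 0.19, 95% interval -0.80 to -0.02, unadjusted p = 0.0390 in edgeR's test). HT+EA libraries lay wholly below HT+SEA libraries for 9 of the 540 measured miRNAs (1.67%) and wholly above them for 17 (3.15%). The NC libraries, at 44.4 to 53.1 CPM, were at the level of the HT+SEA group, and the HT libraries were spread from 21.3 to 45.6 CPM. miR-142-3p was called with 2 of the 6 libraries left out in turn, and its log2 fold change ran from -0.51 to -0.31 over these 6 omissions. It was called in 9 of the 12 alternatives that keep all libraries.

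The partner strand and the other immune miRNAs did not pass the test. miR-142-5p was at 46.5 to 52.5 CPM after EA and 50.8 to 58.3 CPM after SEA. miR-21-5p, which rises in activated glia and was the most abundant of the list, was at 9339, 9016 and 11044 CPM after EA and at 9879, 7493 and 13350 CPM after SEA. miR-146a-5p and miR-146b-5p, brakes on inflammatory signalling, and miR-155-5p, which promotes it, overlapped between the groups as well. Of the 8 measured members of the microglial and myeloid list 1 was called, against 2.22% of the 540, and their median log2 fold change was -0.06. miR-223-3p, the defining miRNA of neutrophils, was at 1.24, 12.5 and 10.5 CPM after EA and at 19.0, 1.38 and 1.74 CPM after SEA. Libraries of the same group differed in it by far more than the groups did.

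miR-493-5p, a miRNA of the imprinted Dlk1-Dio3 locus, was lower after EA in all 3 libraries. It was at 96.0, 116 and 74.7 CPM after EA and at 142, 127 and 125 CPM after SEA, with no overlap. The means were 95.4 ± 20.4 and 131 ± 9.29 CPM (SD, n = 3), and it fell by 0.49 on the log2 scale (SE 0.17, 95% interval -0.83 to -0.15, unadjusted p = 0.00579 in edgeR's test). The NC libraries lay from 131 to 161 CPM and the HT libraries from 102 to 158 CPM, so the HT+EA group was the lowest of the 4 by its mean. It was called with 5 of the 6 libraries left out in turn, the exception being HT+EA replicate 3, without which the log2 fold change was -0.35.

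miR-493-3p, the opposite strand of the same hairpin, had a mean of 72.1 CPM and a log2 fold change of -0.26 and was not called (unadjusted p = 0.162 in edgeR's test). The listed miRNAs of this locus, a cluster expressed from the maternal chromosome and abundant in neurons, did not pass the test. Of 80 measured members 62 had positive log2 fold changes and 18 negative ones, with a median of 0.08, where 45.6% of all 540 measured miRNAs were positive. For 7 of the 80 the HT+EA libraries lay wholly above the HT+SEA libraries, as they did for 17 of the 540 (3.15%). miR-127-3p, which is antisense to Rtl1 and is the most abundant of the list, was at 31924, 36975 and 36496 CPM after EA and at 31162, 29130 and 29829 CPM after SEA. The summed locus was at 82479, 89189 and 83110 CPM against 82349, 75162 and 70433 CPM. The excess of positive members depended on single libraries. Without HT+EA replicate 2, 45 members were positive and 35 negative, with a median of 0.04. Without HT+SEA replicate 3, which had the lowest sum of the 6, 35 members were positive and 45 negative, and the median was -0.04.

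miR-344b-1-3p was the 1 measured miRNA that was called higher after EA. The miR-344 genes are rodent miRNA genes expressed in brain. Its levels were 209, 197 and 191 CPM after EA and 164, 157 and 149 CPM after SEA, and the log2 fold change was 0.32 (SE 0.16, 95% interval 0.00 to 0.63, unadjusted p = 0.0493 in edgeR's test). The spread within the groups was small, at 199 ± 8.88 and 157 ± 7.41 CPM (SD, n = 3). The HT libraries, from 135 to 164 CPM, and the NC libraries, from 146 to 168 CPM, were at the level of the HT+SEA group, and the 3 HT+EA libraries were above all 9 others of the CEA. The estimate hardly moved with any library left out, from 0.28 to 0.35, but the unadjusted p then passed 0.05 in all 6 cases. miR-410-3p, a Dlk1-Dio3 miRNA with the same seed and a mean of 471 CPM, was not called.

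miR-34b-5p, which with miR-34c and miR-449 belongs to the multiciliated cells that line the ventricles, was lower after EA without overlap. It was at 3.30, 3.43 and 2.95 CPM after EA and at 3.91, 5.51 and 7.02 CPM after SEA, from 44 to 48 and from 56 to 89 counts. It fell by 0.79 on the log2 scale (SE 0.31, 95% interval -1.42 to -0.16, unadjusted p = 0.0144 in edgeR's test). It was called with 5 of the 6 libraries left out in turn, the exception being HT+SEA replicate 3, without which the log2 fold change was -0.58 with an unadjusted p of 0.0849. The NC libraries ranged from 2.32 to 13.4 CPM and the HT libraries from 0.58 to 6.59 CPM, which is wider than the difference between the 2 groups. miR-34c-5p, from the same precursor RNA and with the same seed, has its sequence above beside that of miR-34b-5p, and was at 584, 711 and 815 CPM after EA and at 450.99, 1017 and 1113 CPM after SEA, an overlap that did not pass the test. miR-34a-5p, the second of this seed by level with a mean of 355 CPM, was not called either.

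The list of epithelial, choroid plexus and ciliated-cell miRNAs to which it belongs had 14 measured members. All 14 had negative log2 fold changes, the largest -0.79, with a median of -0.32, where 54.4% of the 540 measured miRNAs were negative. miR-34b-5p was the 1 member called, against 2.22% of the 540. Negative signs also prevailed in other lists, at 6 of 6 striated-muscle, 6 of 6 miR-29 and 11 of 12 neuronal miRNAs, with medians of -0.04, -0.07 and -0.08. These counts depended on single libraries. Without HT+EA replicate 3 neuronal miRNAs were 4 negative and 8 positive, and miR-29 forms 2 and 4. Without HT+SEA replicate 3 striated-muscle miRNAs were 1 negative and 5 positive. With library totals or the upper quartile in place of TMM 2 of the 14 epithelial and ciliated-cell members turned positive. Without HT+SEA replicate 2 the count of these 14 was 8 negative and 6 positive and the median -0.05. In that library miR-204-5p, the miRNA of choroid plexus and pigment epithelium, was at 884 CPM, while the other 5 lay between 421 and 530 CPM.

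The same library decided the result for miR-1298, which is processed from an intron of the serotonin 2C receptor gene and is abundant where that gene is, the choroid plexus included. miR-1298 was at 5679, 3744 and 2918 CPM after EA and at 3321, 10629 and 2908 CPM after SEA. Apart from HT+SEA replicate 2 the HT+SEA libraries lay below the middle HT+EA library, and NC replicate 2 was high in the same way, at 7386 CPM. The log2 fold change was -0.49 (SE 0.24, unadjusted p = 0.0438 in edgeR's test), and without HT+SEA replicate 2 it was 0.40 in the opposite direction. It was called in 3 of the 12 alternatives that keep all libraries and with 3 of the 6 libraries left out in turn. miR-448-3p of the same host gene was at 59.3 CPM in that library and between 21.0 and 34.4 CPM in the other 5. Of the 6 measured Htr2c miRNAs 1 was called, against 2.22% of the 540, and their median was -0.16. How much choroid plexus each piece of tissue held was not tested.

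miR-32-5p was called lower after EA, and its seed relatives were not called. It was at 64.5, 59.8 and 48.3 CPM after EA and at 71.3, 61.2 and 103 CPM after SEA, and fell by 0.48 on the log2 scale (SE 0.19, 95% interval -0.86 to -0.10, unadjusted p = 0.0141 in edgeR's test). The groups met at HT+EA replicate 1 and HT+SEA replicate 2, and without HT+SEA replicate 3 the log2 fold change was -0.24 with an unadjusted p of 0.182. It was called in 10 of the 12 alternatives that keep all libraries and with 3 of the 6 libraries left out in turn. The same seed, AUUGCAC, is carried by miR-25-3p, miR-92a-3p, miR-92b-3p and miR-363-3p, whose log2 fold changes lay between -0.34 (miR-363-3p, SE 0.38) and 0.04. Whether miR-32-5p differed from them was not tested. miR-25-3p, miR-92a-3p and miR-92b-3p, with means of 605, 265 and 357 CPM, were each more abundant than miR-32-5p, with 68.1 CPM.

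miR-184, a miRNA best known from the lens and cornea and also found in neural progenitors, fell by 1.11 on the log2 scale (SE 0.36, unadjusted p = 0.00319 in edgeR's test) although its groups overlapped widely. It was at 2.20, 12.2 and 3.29 CPM after EA and at 4.89, 14.99 and 17.2 CPM after SEA. The NC libraries ran from 3.06 to 20.2 CPM, wider than either. As for every p in the CEA, the spread behind it came mostly from other miRNAs. Of the 12 alternatives that keep all libraries 6 did not call miR-184, among them DESeq2 (unadjusted p = 0.204) and edgeR with a robust spread (unadjusted p = 0.290). With each library left out in turn it was called in all 6 cases, with log2 fold changes from -2.18 without HT+EA replicate 2 to -0.72 without HT+EA replicate 1.

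miR-219a-5p, which drives oligodendrocyte maturation, was at 104, 109 and 74.8 CPM after EA and at 114, 77.5 and 210 CPM after SEA. Its call (log2 fold change -0.51, SE 0.20, unadjusted p = 0.0153 in edgeR's test) rested on HT+SEA replicate 3, without which the log2 fold change was -0.04, and 6 of the 12 alternatives that keep all libraries did not call it. In the PVN it was at 44.6, 40.5 and 54.8 CPM after EA and at 76.3, 93.8 and 55.0 CPM after SEA. In HT+SEA replicate 3 of the CEA the summed oligodendrocyte miRNAs were also highest, at 15685 CPM against 7682 to 13898 CPM in the other 5. This sum holds both miR-219a-2-3p and its near duplicate miR-219b, and without miR-219b it was 8782 CPM against 4337 to 7599 CPM. miR-219a-2-3p, the most abundant of the list, was at 4463, 4528 and 6310 CPM after EA and 4497, 3350 and 6912 CPM after SEA. miR-338-3p, its usual partner, was at 472 to 537 CPM after EA and 477 to 793 CPM after SEA. Of 6 measured members 1 was called, against 2.22% of the 540, and their median was -0.05, or -0.13 over the 5 without miR-219b.

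miR-206-3p, a miRNA of skeletal muscle, was at 11.96, 16.04 and 25.1 CPM after EA and at 19.3, 22.02 and 35.03 CPM after SEA. It fell by 0.55 on the log2 scale (SE 0.24, unadjusted p = 0.0278 in edgeR's test), and by 0.25 without HT+SEA replicate 3, when it was no longer called. It was called in 7 of the 12 alternatives that keep all libraries and with 3 of the 6 libraries left out in turn. Its seed relative miR-1b was at 238 to 435 CPM after EA and 186 to 380 CPM after SEA, and miR-1-3p, miR-133a-3p and miR-133b-3p, the other striated-muscle miRNAs, were not called. The predicted miRNA novel_281 was at 0.649 ± 0.144 and 1.42 ± 0.768 CPM (SD, n = 3), with no overlap, and fell by 1.13 on the log2 scale (SE 0.50, unadjusted p = 0.0277 in edgeR's test). It was called with 3 of the 6 libraries left out in turn, and without HT+SEA replicate 3 its log2 fold change was -0.62 with an unadjusted p of 0.281.

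The 11 calls on fewer than 10 counts were 7 higher and 4 lower after EA. Known among them were miR-3577, with 3 to 12 counts after EA and 1 to 2 after SEA, miR-301b-3p, with 3 to 7 against 1, and miR-3593-3p, with 0 after EA and 0 to 4 after SEA. The other 8 were predicted miRNAs with at most 7 counts in any of the 6 libraries and none in 1 whole group. At this depth such counts do not show a level for both groups, and no fold is given.

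**Figure D3:**
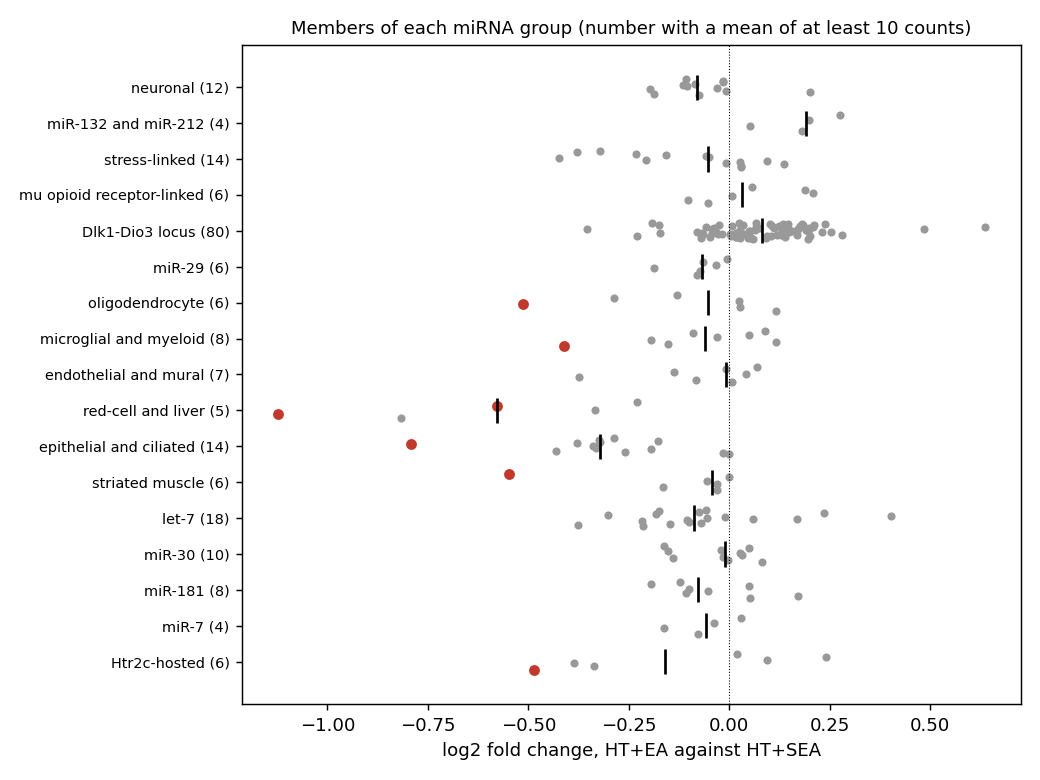
Each row is a group of miRNAs named by cell type, locus or family, with the number measured in brackets; points are its members, placed by log2 fold change of HT+EA against HT+SEA (horizontal axis), red where called at an unadjusted p under 0.05, and the black line is the median of the group. The red-cell and liver group and the epithelial and ciliated group have medians of -0.58 and -0.32, while the other medians shown lie between -0.16 and 0.19.

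Neuronal miRNAs were the most abundant of the cell-type groups. miR-9, miR-124, miR-128 and miR-138 forms summed to 271139, 267311 and 253785 CPM after EA and to 261236, 263206 and 269334 CPM after SEA, a sum that holds both miR-9a-5p and its near duplicate miR-9b-3p, and none of 12 was called, against 2.22% of the 540. miR-128-3p, a neuronal miRNA that dampens excitability, was at 21388, 21512 and 24095 CPM against 23453, 27870 and 23825 CPM. miR-124-3p, the classical neuron-specific miRNA, was at 1634, 1900 and 1348 CPM against 1380, 1821 and 1818 CPM.

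miR-132 and miR-212, a cluster that CREB switches on after neuronal activity, had 4 measured members with log2 fold changes between 0.05 and 0.27 and a median of 0.19, none called, where 45.6% of the 540 measured miRNAs were positive and 2.22% called. miR-132-3p was at 1852, 2173 and 1407 CPM after EA and at 1724, 1931 and 1015 CPM after SEA. The lowest of the 6 for each of the 4 members was HT+SEA replicate 3, and without it 3 of the 4 were negative and the median was -0.05.

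The lists most tied to the question of stress and analgesia held no called member, which at a share of 2.22% over the 540 is no result about them. Of 14 measured miRNAs linked to stress in the amygdala or to glucocorticoid signalling, among them miR-34a, miR-34c, miR-16 and miR-135a, none was called, with a median of -0.05. None was called among 6 measured miRNAs linked to the mu opioid receptor transcript, miR-23b, miR-339, miR-103 and miR-107 forms, with a median of 0.03. Their sum was 9143, 10107 and 9107 CPM after EA and 8754, 10050 and 9886 CPM after SEA. miR-107-3p alone did not overlap, at 366 to 375 CPM after EA and 377 to 410 CPM after SEA, without a call, where HT+EA lay wholly below for 1.67% of the 540.

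With 2.22% of the 540 called, the lack of a call in lists this short is no result about them, and their medians are description. None was called among 7 endothelial and mural miRNAs, 18 of the let-7 family, 10 of the miR-30 family, 8 of the miR-181 family, 6 of the miR-29 family, 4 of the miR-7 family, 4 of the miR-135 family, 2 of the miR-218 family or 6 of the list of miR-221, miR-222 and miR-139, all with medians between -0.14 and 0.03. Of 8 measured miRNAs of the X-linked miR-741 cluster none was called (median -0.23). Nor were any called among 4 in the calcitonin receptor gene (median 0.26), 2 in Gabre (median -0.04), 3 at Gnas (median 0.20) or 2 in the Hox clusters (median 0.26). The Hox median only joins miR-10b-5p at 0.55 and miR-10a-5p at -0.02, whose sign turned with a library left out. The let-7 median was -0.09, and 0.01 without HT+SEA replicate 3. Of the 16 miRNAs that the study's text names 14 were measured, with a median of -0.01, and miR-142-3p was the 1 of these called. The text cites miR-142 and miR-212 from earlier work and took the others from analyses of this series, so for the others the list is not independent evidence. Those analyses concerned the PVN, with HT against NC and HT+EA against HT. The values here, from the CEA and against SEA, therefore do not test them. The predicted miRNA novel_583 of that list is among the calls on fewer than 10 counts. miR-34a-5p was at 277, 272 and 439 CPM after EA and 377, 268 and 496 CPM after SEA. miR-328a-3p and miR-92b-3p, with log2 fold changes of 0.05 (SE 0.14) and 0.04 (SE 0.16), had 95% intervals from -0.24 to 0.34 and from -0.28 to 0.35.

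**Figure D4:**
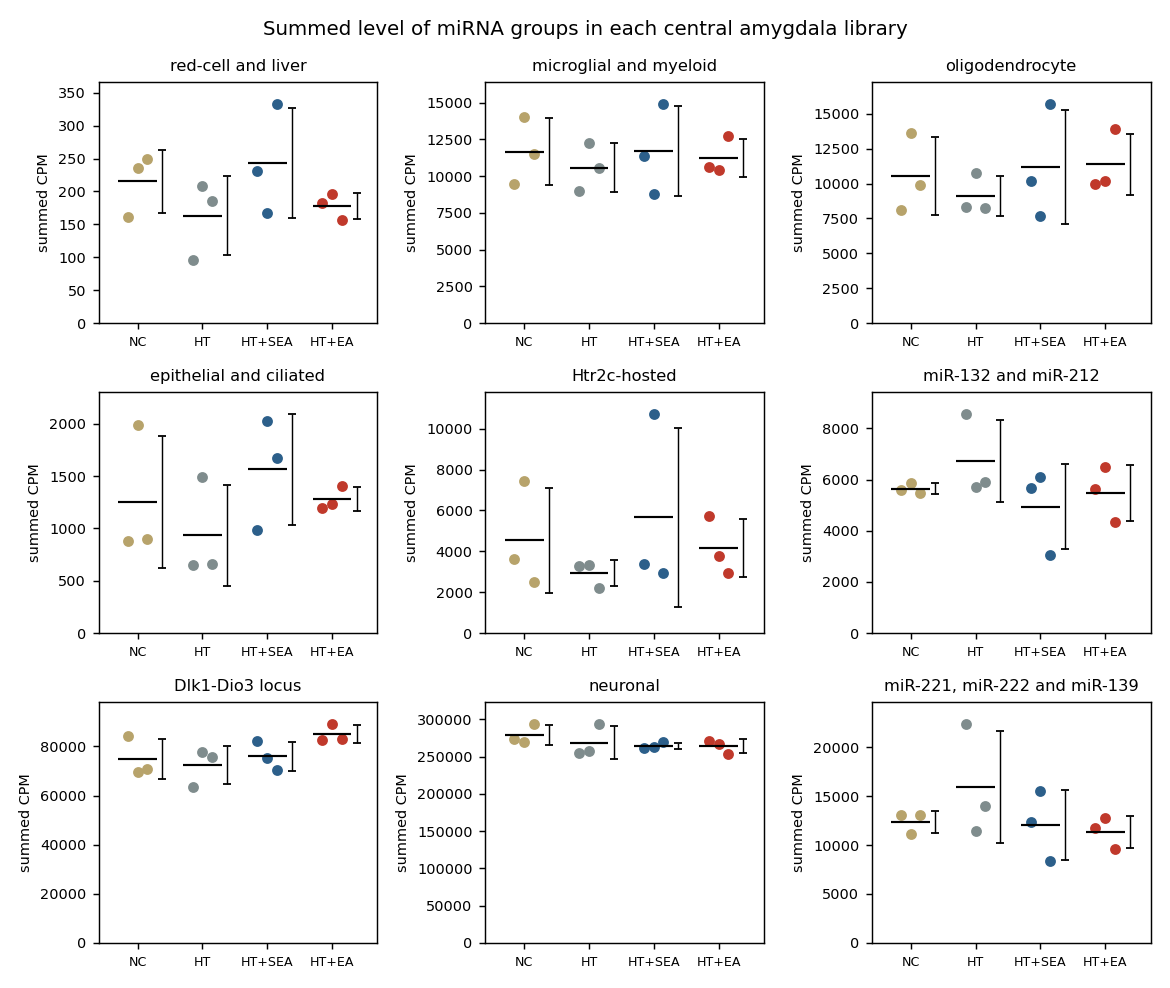
Each panel gives the summed CPM of a group of miRNAs (vertical axis, linear from 0) in the 3 CEA libraries of each treatment group (horizontal axis); points are libraries, the line is the mean and the bar is the mean ± 1 SD. HT+SEA replicate 3, the rightmost of its group, is the highest of the 12 for the red-cell, myeloid and oligodendrocyte groups and the lowest for miR-132 and miR-212, and HT+SEA replicate 2, in the middle, is the highest for the Htr2c-hosted group.

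The same contrast in the PVN, in 6 separate libraries, set the CEA results beside a second nucleus. There 71 of 994 miRNAs were called at an unadjusted p under 0.05 (7.14%), in a fit that took the spread entirely from all miRNAs together and not from the miRNA's own libraries. Of the 12 measured miRNAs called in the CEA 9 had the same sign in the PVN (75%), against 307 of the 540 measured (56.9%). miR-144-3p was at 6.46, 6.51 and 7.76 CPM after EA and at 14.5, 12.7 and 10.9 CPM after SEA, with no overlap, and its log2 fold change was -0.89 (SE 0.17). miR-32-5p did not overlap either, at 42.5, 39.0 and 47.1 CPM against 60.3, 61.3 and 52.7 CPM (log2 fold change -0.45, SE 0.12). miR-493-5p, at 58.3, 88.3 and 58.1 CPM against 115, 113 and 74.1 CPM, overlapped in the PVN (log2 fold change -0.58, SE 0.11). Groups without overlap in the PVN did not set the CEA calls apart. They also occurred for miRNAs uncalled in the CEA, such as miR-34a-5p and miR-218a-5p (HT+EA below) and miR-204-5p (HT+EA above). The share of all PVN miRNAs without overlap is not given here.

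The remaining calls differed in how closely the nuclei matched. miR-451-5p, the cluster partner of miR-144-3p, was at 138, 194 and 116 CPM after EA and at 140, 146 and 150 CPM after SEA in the PVN, a log2 fold change of 0.03 (SE 0.10). miR-206-3p was at 13.3 to 18.1 CPM after EA and 11.8 to 14.7 CPM after SEA there. miR-1298 was at 2522 to 2794 CPM and 2665 to 2910 CPM, without the high library seen in the CEA. miR-344b-1-3p was at 227, 241 and 229 CPM after EA and at 218, 205 and 193 CPM after SEA there (log2 fold change 0.17, SE 0.10). The effect of EA against SEA was tested for a difference between the nuclei over the 12 libraries, which the fit took as independent. Of 1058 miRNAs none passed an adjusted p of 0.05 in the interaction test of edgeR, where the smallest was 0.118, and 24 had an unadjusted p under 0.05 (2.27%), miR-451-5p (difference of log2 fold changes -0.55, SE 0.25), miR-206-3p (-0.84, SE 0.33) and novel_281 (-2.27, SE 0.85) among them. DESeq2 also gave 0 after adjustment. With the replicate number as a block 5 passed an adjusted p of 0.05 in edgeR's interaction test, miR-741-3p, miR-743b-3p and miR-881-3p of the X-linked cluster, miR-3473 and novel_242, none of them among the 12. The PVN and CEA libraries of 1 group and number cannot be taken as wholly separate measurements. Over 534 miRNAs, the deviations of same-numbered libraries from the group mean correlated between the nuclei at 0.36 to 0.58 in the HT+SEA group. They did so at 0.02 to 0.23 in the HT+EA group, 0.12 to 0.38 in the NC group and 0.015 to 0.041 in the HT group. Differently numbered libraries ran from -0.49 to -0.07 in the HT+SEA group and from -0.20 to 0.07 in the HT+EA group. Deviations from a mean cancel within a group, so these values are tied to those of equal number and add no separate evidence. Whether such libraries share a rat was not tested. In miR-184, for example, the values of the PVN were 3.57, 10.6 and 2.36 CPM after EA and 4.52, 15.5 and 16.1 CPM after SEA, in the order of the replicate numbers, beside those of the CEA above.

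**Figure D5:**
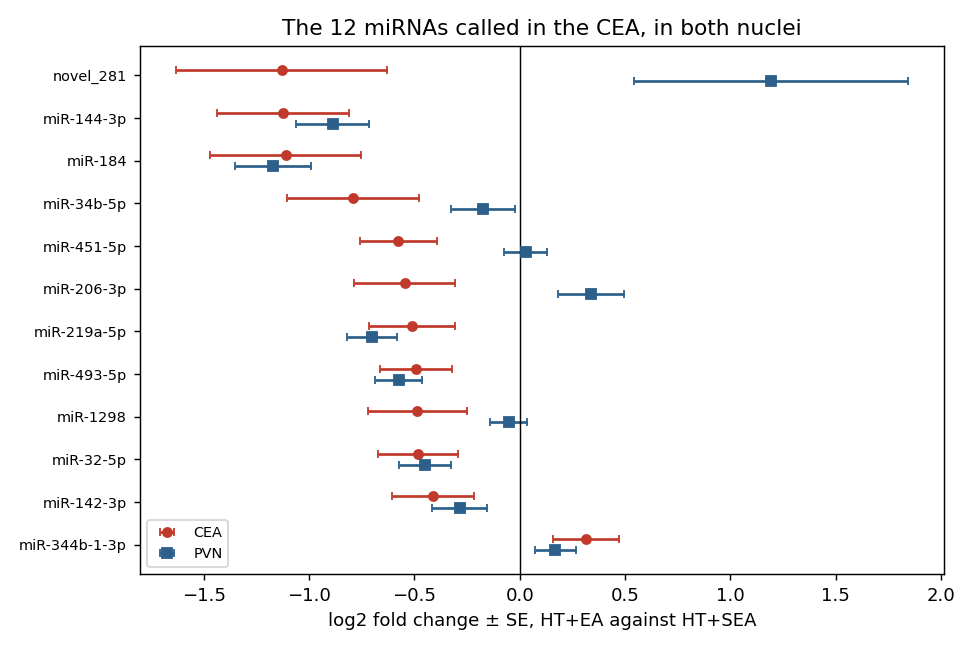
For the 12 measured miRNAs called in the CEA the log2 fold change of HT+EA against HT+SEA (horizontal axis) is shown with its SE as a bar, in the CEA (red circles) and in the PVN (blue squares). In both nuclei 9 of the 12 have the same sign, and novel_281, miR-206-3p and miR-451-5p do not.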

How the data were processed

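Small RNA was sequenced from the CEA and PVN, with 3 libraries per nucleus and group. The values deposited are raw counts of reads on each of 1098 miRNAs (703 known, 395 predicted), which the authors had not normalized. The study's methods name a NEBNext small RNA kit, HISAT2, featureCounts and the rat genome, while the submitters' processing notes list HISAT2 and featureCounts with the human builds GRCh38 and hg38. How miRNA reads in particular were counted is not given in the sources used here. Near-identical miRNAs, such as miR-9a-5p with miR-9b-3p or miR-133a-3p with miR-133c, share counts and are not separate measurements. A further 24 columns of scaled values were not used.

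The 6 libraries, of 12673690 to 14913564 counts, were fitted with edgeR 4.0.16 (limma 3.58.1, R 4.3.3), TMM, glmQLFit and glmQLFTest over the 1026 miRNAs with at least 1 count in them. The other 72 were at 0. miRNAs were called at an unadjusted p under 0.05, as in the study, beside Benjamini-Hochberg adjustment. Standard errors are the log2 fold change over the square root of F. The difference between nuclei was an interaction over 12 libraries. The fits were tested on simulated data. Alternatives were DESeq2 1.42.0, other scalings and filters, a robust spread, all 4 CEA groups, the replicate number as a block, and each library left out. Python 3.11.15 (pandas 2.3.3, numpy 2.4.6; matplotlib 3.10.9 for figures) was used otherwise.

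The comparison, the 26 miRNA lists and the tests were chosen with earlier results of these data known. Named miRNAs are those with an adjusted p under 0.05 (up to 10; there were none), per direction the 10 with the smallest p among those called with a mean of at least 10 counts and without overlap in CPM, those in the study's text, and up to 4 examples per list. By that rule miR-493-5p, miR-34b-5p, novel_281, miR-142-3p and miR-344b-1-3p are named. miR-184, miR-32-5p, miR-493-3p, the remaining calls, their seed relatives and the calls of the block were named after their values were seen. RefSeq sequences (GRCr8) were matched by name for 637 of the 703 known miRNAs.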

Additional observations from a re-analysis of the deposited data

How the results depend on the processing

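Of the 12 measured calls all kept their sign under the 12 alternatives that used all libraries, apart from novel_281, which was not in the test of known miRNAs only. miR-144-3p, miR-451-5p and miR-493-5p were called in all 12, miR-34b-5p and miR-344b-1-3p in 11. The number still called of the 12 was lowest, at 5, with all 4 CEA groups in the fit, without HT+EA replicate 2 and without HT+SEA replicate 3. The count of all calls at an unadjusted p under 0.05, 23, was 8 with DESeq2, 15 with all 4 CEA groups in the fit and, where fewer miRNAs were tested, 9 with edgeR's expression filter, 12 when at least 10 counts were asked for and 13 among known miRNAs. The other 7 gave 22 to 29. Leaving out each library gave 15 (without HT+EA replicate 2) to 37 calls (without HT+SEA replicate 3), and after adjustment 0 to 4: 3 without HT+EA replicate 1, 4 without HT+SEA replicate 2 and 1 without HT+SEA replicate 3. The cause was not tested. The main fit did not pair the HT+EA and HT+SEA libraries by replicate number. The deviations of same-numbered libraries correlated at -0.20, 0.08 and 0.33, and those of differently numbered ones at -0.35 to 0.33. So few values cannot decide whether the numbers pair the libraries. Under the replicate block 29 miRNAs were called, 5 of them after adjustment (miR-10b-5p, miR-144-3p, miR-184, miR-451-5p and miR-493-5p), and 5 had an adjusted p under 0.05 for the difference between the nuclei. Among the called miRNAs and those of the study's text the sign turned with a library left out for miR-1298 (from -0.80 to 0.40, positive without HT+SEA replicate 2) and for 6 uncalled ones: miR-34a-5p (-0.50 to 0.0010), miR-212-3p (-0.054 to 0.47), miR-138-5p (-0.25 to 0.10), miR-92b-3p (-0.079 to 0.11), miR-1224 (-0.23 to 0.18) and miR-331-3p (-0.12 to 0.037), which was also 0.0017 with library totals and 0.0085 with the upper quartile. Of the 65 other examples of lists, all uncalled, 46 turned sign with some library left out (miR-132-3p and miR-132-5p among them) and 9 of them also under another alternative, so their directions are not settled by these libraries.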

Other observations

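Beyond the comparison, 2 miRNAs fell into a high and a low level in the CEA libraries, which was noticed after the values were seen. miR-223-3p, the neutrophil miRNA, was at 12.5 and 10.5 CPM in HT+EA replicates 2 and 3, 19.0 CPM in HT+SEA replicate 1 and 10.7 and 10.8 CPM in NC replicates 2 and 3, and between 0.89 and 1.74 CPM in the other 7 libraries. miR-10b-5p, a Hox-cluster miRNA that is scarce in forebrain, was at 140 and 178 CPM, 159 CPM, and 201 and 177 CPM in the same 5 libraries, and between 11.4 and 68.8 CPM in the other 7. Of the 540 measured miRNAs it had the log2 level most like that of miR-223-3p over the 12 libraries (r = 0.83), ahead of miR-205, a miRNA of stratified epithelium (r = 0.81), which ran from 1.87 to 2.79 CPM in the 5 libraries and from 0.39 to 1.16 CPM in the other 7. In the PVN miR-223-3p was at 9.0 to 11.9 CPM in the 3 HT+EA libraries, at 11.1, 1.58 and 1.49 CPM in the HT+SEA libraries, at 1.02 to 1.54 CPM in the HT libraries and at 22.3, 89.0 and 81.2 CPM in the NC libraries. miR-10b-5p was there at 128, 135 and 174 CPM, at 134, 31.0 and 30.6 CPM, at 28.0 to 45.1 CPM and at 343, 43.8 and 196 CPM in the same order of groups. The log2 fold change of miR-10b-5p in the CEA was 0.55, from 0.052 to 1.54 with each library left out in turn, and was not called without the replicate block. The HT libraries were thus low in miR-223-3p in both nuclei, while the HT+SEA libraries held both levels in both nuclei and the HT+EA and NC libraries in the CEA. These levels were not tested between groups.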
